A study of Danio rerio with 20 samples.

Results

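MicroRNA levels in whole sapje zebrafish were compared with those of wild type SW fish at 30 days post fertilisation (dpf). The comparison rests on 6 of the 20 samples of the series, 3 labelled sapje (replicates 1, 2 and 3) and 3 labelled wild type SW (replicates 2, 3 and 4), chosen by their titles. All mature zebrafish microRNA probes of the array were read, 219 in number, of which 167 passed the filter on low signal and were tested. Sapje fish carry a mutation in dmd, the gene of dystrophin, and serve as a model of Duchenne muscular dystrophy, and SW is the wild type of the same cohort. Both groups are of the TL strain, were kept on one diet of shrimp, and gave RNA from whole fish, with 10 fish per cohort. Whether the mutants were homozygous is not given in the sources used here, nor whether each sample had its own pool of fish. Tags in the names of the deposited sapje data may mean repeat hybridisations of 1 pool, although the labels call them replicates, so p-values measure only the spread between these samples, which may be technical. The series also holds a second dystrophin mutant, sapje-like, with its own wild type SLW, and samples of all 4 genotypes at 5 dpf. The array holds no probe for dystrophin RNA, so the genotype was not checked against the targeted gene.

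Dystrophin ties the cytoskeleton of the muscle fibre to the matrix around it, and fibres that lack it tear and are cleared by immune cells. MicroRNAs are short RNAs that pair through their seed, bases 2 to 8, with target messages and lower their output, so microRNAs with 1 seed share many predicted targets. In vertebrates miR-1, miR-133, miR-206 and miR-499 mark striated muscle, miR-122 liver, miR-192 and miR-194 gut, and miR-451 red blood cells. Others respond to state: miR-146 is induced by NF-kappaB and dampens innate immune signalling, and miR-21 rises in injured and fibrotic tissue of mammals. In a whole fish, fewer cells of a type and less RNA per cell cannot be told apart.

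The sequences of the microRNAs on which the results turn are given first, as the spot files list them, 5′ to 3′, with the seed in capitals.
miR-739: aGGCCGAAguggagaaggguu
miR-146b: uGAGAACUgaauuccaagggug
miR-146a: uGAGAACUgaauuccauagaugg
miR-21: uAGCUUAUcagacugguguuggc
miR-122: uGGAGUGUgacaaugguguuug
miR-192: aUGACCUAugaauugacagcc
miR-194a: uGUAACAGcaacuccaugugg
miR-194b: uGUAACAGccgcuccaugugga
miR-1: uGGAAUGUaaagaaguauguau
miR-206: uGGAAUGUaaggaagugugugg
miR-499: uUAAGACUugcagugauguuua
miR-451: aAACCGUUaccauuacugaguu
miR-462: uAACGGAAcccauaaugcagcu
miR-731: aAUGACACguuuucucccggaucg
The 2 miR-146 members share their seed and differ at 3 of 22 bases, which bears on how far their probes can be told apart. The seed of miR-1 is that of miR-206, and the 2 differ at 4 of 22 bases. The miR-194 pair also shares a seed and differs at 2 of 21 bases. In RefSeq's zebrafish annotation (GRCz12tu) the gene of miR-192 neighbours that of miR-194a, and the gene of miR-462 neighbours that of miR-731.

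Values are normalised log2 intensities, and differences are sapje minus wild type SW with the standard error of a limma fit over all 20 samples. That error pools the spread within all 8 groups of genotype and age. Sapje replicates 1 and 3 and SW replicate 3 were stained with Cy3, and sapje replicate 2 and SW replicates 2 and 4 with Cy5, so dye was a term of the fit. The median empty spot read 282 to 413 in the 3 Cy3 samples and 34.2 to 37.8 in the 3 Cy5 samples. Between 147 and 164 probes per sample were above background, 143 were so in all 6 samples and 53 in none, and the number of arrays limits the precision. By the pattern of single spots, sapje replicates 1, 2 and 3 appeared to share arrays with SW replicates 2, 3 and 4 (correlations of spot residuals of 0.78, 0.69 and 0.61). The labels do not state this sharing. Probes for 5S ribosomal RNA, a check of the RNA put on the array, overlapped between the groups at 16371 to 31236 scanner units in sapje and 13994 to 25547 in SW. Sapje replicate 1 stood apart from the other 5 samples in the gut and liver microRNAs, and SW replicate 3 in let-7, as given with those groups.

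In sapje 2 microRNA probes read higher and none lower at a limma adjusted p under 0.05: miR-739 and miR-146b, 1.20% of the 167 probes tested. At an unadjusted p under 0.05 there were 18 probes (10.8%), 9 with a difference above 0 (5.39%) and 9 below (5.39%). The groups did not overlap in 47 probes (28.1%), with sapje above in 20 (12.0%) and below in 27 (16.2%). For a single probe an exact two-sided permutation test of 3 against 3 samples cannot go below p = 0.1. The median difference over all tested probes was -0.06, with 100 below 0 and 67 above, 7 differences over 1 and 6 under -1. Both calls were lost whenever any one of the 6 samples was left out, with adjusted p-values of 0.0539 to 0.128, and under cyclic loess and within-array loess. The call of miR-146b was also lost on the authors' deposited table and with fewer samples in the fit, either the 30 dpf samples or the 6 compared, where miR-739 kept its own. The 25 probes with the smallest p are drawn with their intervals in the plot of log2 differences.

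**Figure D1:**
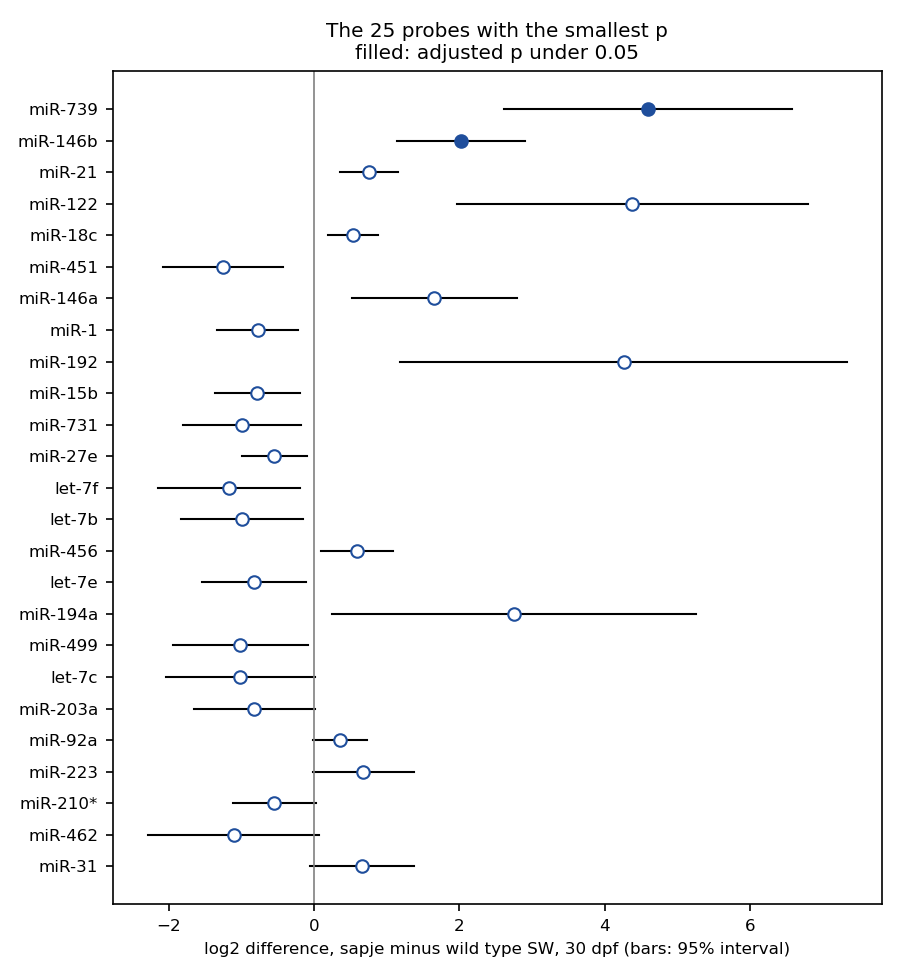
Log2 difference, sapje minus wild type SW at 30 dpf, on the x axis for the 25 probes with the smallest p, ordered by p from the top, with 95% intervals from limma. The filled points are miR-739 (4.60) and miR-146b (2.02), the 2 probes with an adjusted p under 0.05, and the open points missed that threshold.

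MiR-739, a microRNA listed on the array for zebrafish but not matched to a RefSeq gene, had the largest difference of the 167 probes. Its values were 13.94, 13.43 and 13.43 in sapje replicates 1, 2 and 3, and 8.73, 9.09 and 9.74 in SW replicates 2, 3 and 4. Every sapje sample lay far above every SW sample. The difference was 4.60 ± 0.92 (SE, n = 3 per group), a 24.2-fold higher level, at a limma adjusted p of 0.0216. It was of like size in both dyes, 4.59 within Cy3 and 4.20 within Cy5, and on the 3 inferred arrays it was 5.21, 4.34 and 3.69. Before normalisation the scanner read 13309, 13893 and 12731 units in sapje against 400.4, 1411 and 724 in SW. The authors' deposited table gave 11783, 11322 and 10313 in sapje and 350.5, 505 and 630.0 in SW, a separation of the same order. Whether this signal comes from the microRNA or from fragments of a longer RNA, for example ribosomal RNA, was not tested. The probes for 5S ribosomal RNA do not settle this.

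Of the miR-146 pair, the list of innate immune feedback, both members read higher in each sapje sample than in each SW sample. Over all tested probes this held for 20 of 167 (12.0%). MiR-146b passed the threshold and miR-146a did not. MiR-146b stood at 10.81, 10.70 and 11.53 in sapje and at 8.65, 9.17 and 9.21 in SW. No sapje sample reached down to the SW range. The difference was 2.02 ± 0.41 (SE, n = 3 per group), a 4.06-fold higher level, at a limma adjusted p of 0.0216, and it was 1.99 within Cy3 and 1.77 within Cy5. MiR-146a read 11.43, 9.85 and 11.29 in sapje and 9.80, 8.86 and 8.73 in SW. Here sapje replicate 2 lay only just above SW replicate 2, both stained with Cy5, and the difference of 1.66 ± 0.53 had a limma adjusted p of 0.177. It was 2.50 within Cy3 and 0.59 within Cy5, so its size moved with the dye, whose part was not tested. In the authors' deposited table miR-146b was 1537, 1334 and 2355 in sapje against 325, 501 and 503 in SW, and on that table its adjusted p was 0.0711.

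Of 6 markers of white blood cells 3 were tested, 1 with a difference above 0 and 2 below, none past the threshold. The 3 probes for miR-142 strands had too low a signal to be tested. MiR-223, a microRNA of neutrophils and other myeloid cells, read 9.55, 9.74 and 10.46 in sapje and 9.45, 9.27 and 8.99 in SW. Its groups were apart by a narrow margin, and the difference of 0.68 ± 0.32 had an adjusted p of 0.408. MiR-155, induced in activated immune cells, differed by -0.31 ± 0.28, and miR-150, of mature lymphocytes, by -0.38 ± 0.41. In 1 of these 2 sapje lay below SW without overlap. Over all tested probes sapje lay above without overlap in 20 of 167 (12.0%) and below in 27 (16.2%). The mean of the list overlapped between the groups, at 8.15 to 8.49 in sapje and 8.17 to 8.42 in SW. The part of these cells in the rise of miR-146b was not tested.

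**Figure D2:**
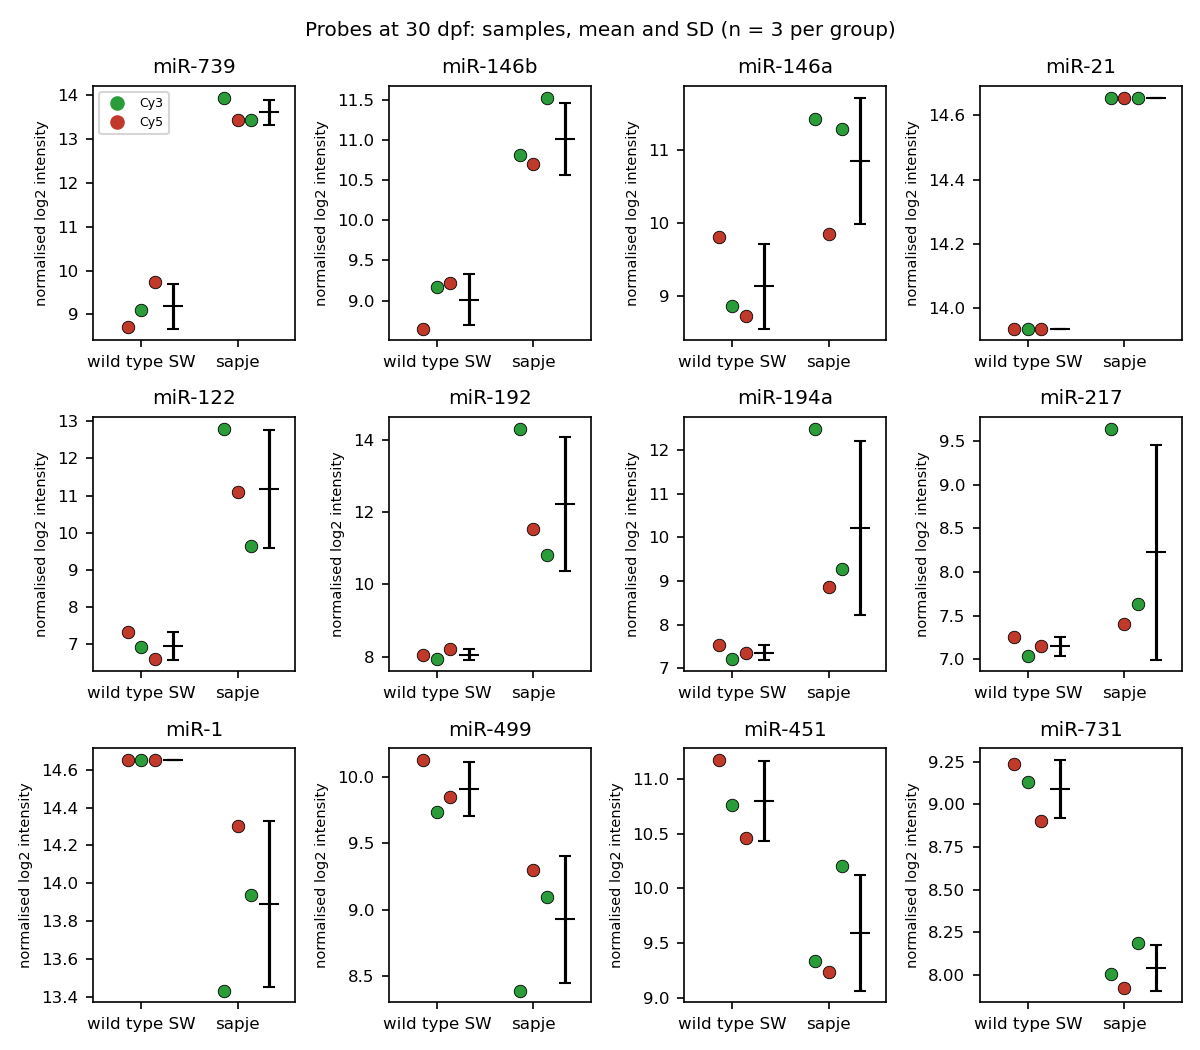
Normalised log2 intensity (y axis) of 12 probes in each of the 3 wild type SW and 3 sapje samples at 30 dpf, coloured by dye, with the group mean and SD (n = 3) beside the points; each panel has its own scale. Sapje lies above SW in the first 8 panels and below in the last 4, without overlap, and sapje replicate 1 is the highest point for miR-122, miR-192, miR-194a and miR-217. The panels are a selection: over all 167 tested probes the groups did not overlap in 47 (28.1%).

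MiR-21, of injured and fibrotic tissue, stood just outside the threshold with a difference of 0.75 ± 0.19 (SE, n = 3 per group) and a limma adjusted p of 0.0711. Its normalised value was 14.65 in all 3 sapje samples and 13.94 in all 3 SW samples. These ties come from quantile normalization, which assigns values by rank: the probe had rank 1 by intensity in each sapje sample and rank 3 in each SW sample. The scanner values, which vary freely, were 28143, 31049 and 32295 in sapje and 14836, 22503 and 22487 in SW. They too did not overlap, and the authors' deposited table gave 31310, 26221 and 32547 against 13593, 14831 and 15866. The call depended on the fit. MiR-21 passed the threshold without background correction, with only the 6 samples fitted, and with a block for array or replicate number. With only the 6 samples fitted, the ties left miR-21 no spread within a group. Its p-value in that fit rested on the spread of other probes and adds no support.

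Other microRNAs reported in injured and dystrophic muscle of mammals differed less. Of 9 listed that are on the array 7 were tested, 5 with a difference above 0 and 2 below, none past the threshold, with a median of 0.13 against -0.06 over all tested probes. The median was 0.48 under cyclic loess, and without SW replicate 3 it was -0.05 with 3 above 0 and 4 below, so its direction rested on that sample. MiR-31, which represses dystrophin in human muscle cells, read 8.59, 7.60 and 8.12 in sapje and 7.51, 7.29 and 7.53 in SW. All 3 sapje samples were the higher ones, replicate 2 by little. Its difference of 0.66 ± 0.33 had an adjusted p of 0.408 and was 1.06 within Cy3 and 0.08 within Cy5.

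The 4 gut and liver microRNAs were higher in each sapje sample than in each SW sample, against 20 of 167 (12.0%) over all tested probes. None of the 4 passed the threshold in the fit over all samples. MiR-122, the dominant microRNA of hepatocytes, read 12.80, 11.10 and 9.64 in sapje and 7.34, 6.94 and 6.60 in SW, where 2 of 3 samples were above background. Its difference was 4.38 ± 1.12 (SE, n = 3 per group) at an adjusted p of 0.0716. It passed the threshold under median scaling, with a replicate block and with the inferred array as a block. MiR-192, of gut and liver epithelium, read 14.30, 11.52 and 10.81 against 8.04, 7.93 and 8.22. Sapje samples thus spread over more than 3 log2 units while SW samples lay close together. The difference was 4.26 ± 1.43 at an adjusted p of 0.191. MiR-194a, from the gene next to that of miR-192, read 12.49, 8.86 and 9.27 against 7.53, 7.20 and 7.34, a difference of 2.75 ± 1.16 at an adjusted p of 0.315. MiR-194b was above background in 3 sapje samples and in no SW sample, with a difference of 0.51 ± 0.41 at an adjusted p of 0.704.

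Sapje replicate 1 carried the highest value of all 4 gut and liver probes. The mean of the list was 11.91 in that sample, 9.57 and 9.16 in the other 2 sapje samples, and 7.17 to 7.39 in SW. Without sapje replicate 1 all 4 differences stayed above 0 and their median went from 3.51 to 2.46, with miR-122 at 3.54, miR-192 at 3.22, miR-194a at 1.70 and miR-194b at 0.17 (0.51 with it). In the other cohort at 30 dpf the list also varied within a genotype. Its mean was 7.17 and 7.26 in wild type SLW replicates 2 and 5, 11.85 in wild type SLW replicate 8, and 11.59 to 12.16 in sapje-like. One wild type sample of that cohort thus read as high as a mutant. The standard errors of the gut and liver probes pool over all groups and take in that spread too. For miR-192, SLW replicates 2, 5 and 8 read 7.75, 7.75 and 14.65. Sapje against SW was not rerun without SLW replicate 8 alone. With only the 6 samples compared in the fit, none of the 4 probes passed the threshold. What part gut content or liver in the RNA had in these levels was not tested.

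In the pancreas list sapje replicate 1 was again the highest sample. All 5 members had a difference above 0, with a median of 0.12, and none passed the threshold. Without that sample 4 of 5 were above 0, at a median of 0.03. MiR-217, of the exocrine pancreas in mammals, read 9.64, 7.40 and 7.63 in sapje and 7.25, 7.04 and 7.16 in SW. Its difference of 1.05 ± 0.65 (adjusted p of 0.511) was 0.38 without sapje replicate 1. The list mean was 8.06 in that sample, 7.47 and 7.35 in the other 2 sapje samples and 7.30 to 7.36 in SW.

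**Figure D3:**
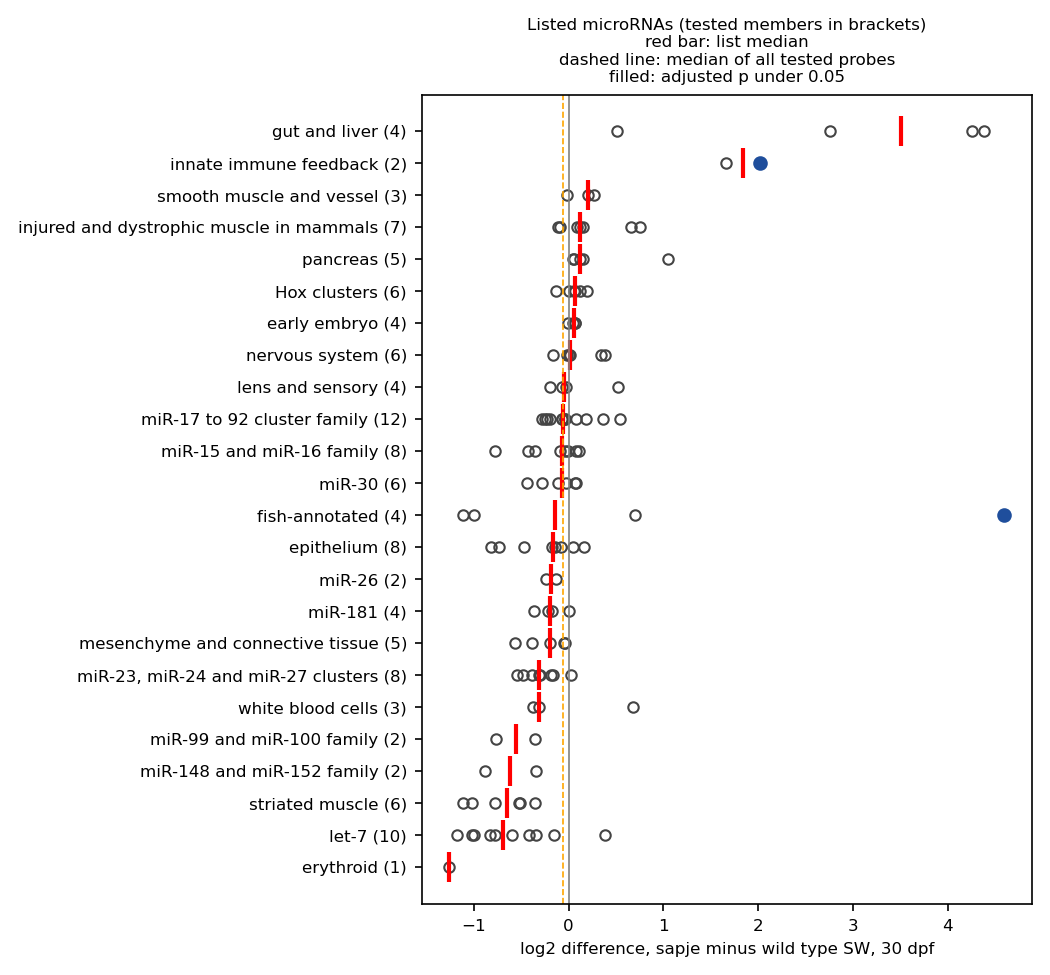
Log2 difference, sapje minus wild type SW at 30 dpf (x axis), of each tested member of 24 lists of microRNAs (y axis, with the number tested), with the list median as a red bar and the median of all tested probes (-0.06) as a dashed line. Filled points passed an adjusted p under 0.05. The gut and liver median of 3.51 lies farthest above 0, and striated muscle (-0.65) and let-7 (-0.69) lie below it.

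Striated muscle microRNAs were lower in sapje in all 6 probes (5 of 6 under cyclic loess and on the authors' deposited table), against 100 of 167 over all tested probes, but none passed the threshold. Their median difference was -0.65, and sapje lay below without overlap in 3 of the 6, against 27 of 167 (16.2%) over all tested probes. MiR-1, which promotes muscle differentiation, read 13.43, 14.30 and 13.94 in sapje and 14.65 in each SW sample, where it had rank 1 by intensity. In scanner units sapje read 11139.6, 22999 and 15489 and SW 25898, 31868 and 33452, with every sapje sample below. The difference of -0.78 ± 0.26 (SE, n = 3 per group) had a limma adjusted p of 0.191. MiR-206, known for its part in muscle regeneration in mice, shares the seed of miR-1 and read 13.64, 13.94 and 14.30 in sapje against 14.30 in each SW sample. Its groups met at that top value, and its difference of -0.36 ± 0.28 was 0.04 under cyclic loess and 0.02 on the authors' deposited table, so its direction depended on the scaling.

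MiR-499, which lies in a myosin gene and marks slow muscle and heart, read 8.39, 9.30 and 9.09 in sapje and 10.13, 9.74 and 9.85 in SW. Its groups did not overlap, and the difference was -1.02 ± 0.43 at an adjusted p of 0.315. MiR-133c read 8.65, 9.91 and 9.50 in sapje and 10.53, 10.40 and 10.61 in SW. All SW samples lay above all sapje samples, yet the difference of -1.11 ± 0.89 had an adjusted p of 0.693. That wide error pools the spread within all 8 groups, not within these samples alone. MiR-133a and miR-133b, which restrain muscle growth pathways and have the same seed, differed by -0.51 ± 0.49 and -0.52 ± 0.52, with overlapping groups.

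Again sapje replicate 1 was the extreme sample. The mean of the 6 muscle probes was 11.09 in that sample, 11.80 and 11.84 in sapje replicates 2 and 3, and 12.16 to 12.39 in SW. Without it all 6 differences stayed below 0 with a median of -0.44, and miR-1 differed by -0.54 and miR-499 by -0.75. Quantile normalization ties the probes of a sample together, so values of muscle and of gut and liver microRNAs in one sample are not independent of each other. Within Cy3 and within Cy5 the list median was -0.65 each time.

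Among blood microRNAs, miR-451, abundant in red blood cells and needed for their maturation, had the largest difference below 0 of the tested probes. It read 9.34, 9.24 and 10.20 in sapje and 11.18, 10.76 and 10.45 in SW. Sapje replicate 3 came close to SW replicate 4, its inferred partner on the array, with a difference of -0.25, while the other 2 arrays gave -1.84 and -1.52. The difference was -1.26 ± 0.38 (SE, n = 3 per group) at an adjusted p of 0.160, with -0.99 within Cy3 and -1.58 within Cy5. The other erythroid microRNA listed, miR-144, did not pass the filter on low signal. The smooth muscle and vessel list, of 3 probes, had a median of 0.20 with overlapping groups in every member.

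The let-7 family, which promotes differentiation and shares 1 seed, was lower in sapje in 9 of 10 members, none of them past the threshold. The next sequences show how close the members are.
let-7a: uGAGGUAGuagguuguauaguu
let-7f: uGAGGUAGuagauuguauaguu
let-7i: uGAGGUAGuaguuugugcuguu
Members differed at 1 to 6 of 22 bases, so the probes may share signal. The median difference was -0.69 against -0.06 over all tested probes. Sapje lay below without overlap in 4 of the 10, against 27 of 167 (16.2%) over all tested probes. Let-7f read 8.94, 10.13 and 8.86 in sapje and 10.00, 11.06 and 10.40 in SW. Sapje replicate 2 overlapped the SW range, and the difference of -1.17 ± 0.45 had an adjusted p of 0.261. Let-7b read 7.51, 7.90 and 7.69 against 8.15, 9.39 and 8.26, a difference of -0.99 ± 0.39. Let-7i, the 1 member with a difference above 0, read 9.80, 9.04 and 8.90 against 8.90, 8.69 and 8.94.

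The let-7 difference moved with the dye. Its median was -1.47 within Cy3, where SW replicate 3 was the only wild type sample, and -0.10 within Cy5. The mean over the 10 probes was 9.75 in SW replicate 3, 9.04 and 9.20 in the other 2 SW samples, and 8.62, 9.07 and 8.60 in sapje replicates 1, 2 and 3. Both Cy3 sapje samples were thus the lowest and the Cy3 wild type sample the highest, and the Cy5 samples lay close to each other. Without SW replicate 3 the median was -0.34. Over all 167 probes the 2 within-dye differences correlated at r = 0.74, as a description across probes of the same 6 samples, and 96 had the same sign in both.

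**Figure D4:**
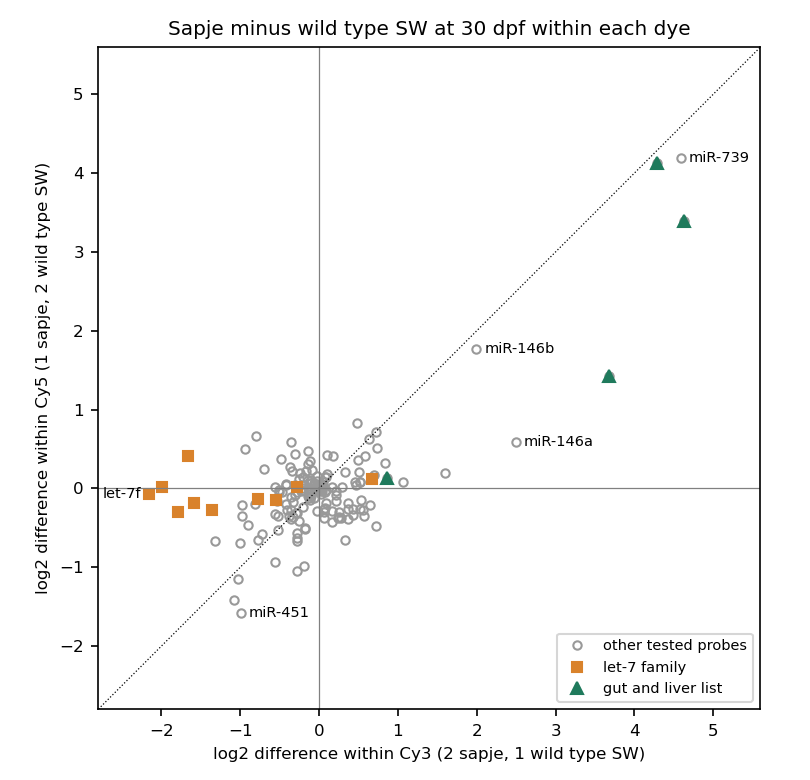
Log2 difference, sapje minus wild type SW at 30 dpf, within Cy3 (x axis, 2 sapje and 1 SW sample) and within Cy5 (y axis, 1 sapje and 2 SW samples) for 167 tested probes, with equality dotted. MiR-739 (4.59 and 4.20) and miR-146b (1.99 and 1.77) lie near the line of equality, whereas let-7 members (squares, median -1.47 and -0.10) lie along the Cy3 axis.

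The neighbouring genes miR-462 and miR-731, known in teleosts for a response to viral infection and interferon, were both lower in sapje. MiR-731 read 8.01, 7.93 and 8.19 in sapje and 9.24, 9.13 and 8.90 in SW. Its groups were well apart, and the difference was -0.995 ± 0.375 (SE, n = 3 per group) at an adjusted p of 0.261. MiR-462 read 10.13, 9.21 and 10.40 against 10.61, 11.34 and 10.64, a difference of -1.11 ± 0.55 at an adjusted p of 0.408. With only these 6 samples fitted, both passed the threshold as lower, with miR-739 and miR-21, the latter with tied values, as higher. MiR-738, a further microRNA annotated in fish, read 10.87, 10.81 and 10.64 in sapje and 9.68, 10.27 and 10.27 in SW, with an adjusted p of 0.408.

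In several seed families all members lay on 1 side of 0, again without a call. All 5 miR-27 members, regulators of lipid metabolism and vessels, had differences of -0.30 to -0.55. Among them miR-27e, at 8.32, 8.90 and 8.65 in sapje and 9.04, 9.30 and 9.17 in SW, was the only one whose groups did not overlap. The miR-15 and miR-16 family, which restrains the cell cycle, lay on both sides, with 2 of 8 listed members above 0. Its lowest member, miR-15b, read 9.50, 9.96 and 9.74 against 10.94, 10.34 and 10.13. That difference was -0.78 ± 0.27 at an adjusted p of 0.222. MiR-99 and miR-100 had a median of -0.56, with sapje below without overlap in both, against 27 of 167 (16.2%) over all tested probes. MiR-148 and miR-152 had a median of -0.61 with overlapping groups. Of the 15 seed families with at least 3 tested members, 4 were below 0 in every member and 2 above.

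MiR-18c, of the miR-17 to 92 clusters that drive proliferation, read 8.44, 8.22 and 8.09 in sapje and 7.78, 7.69 and 7.82 in SW, a difference of 0.54 ± 0.16 at an adjusted p of 0.160, while its family member miR-18a differed by -0.23 ± 0.30. MiR-92a read 12.57 in each sapje sample and 12.09 to 12.39 in SW, a difference of 0.36 ± 0.17. MiR-203a, of the epidermis, read 12.04, 12.80 and 11.90 in sapje and 13.08, 12.94 and 12.94 in SW. Every SW sample lay above, by little over sapje replicate 2, and the difference of -0.82 ± 0.39 had an adjusted p of 0.408. The miR-15 and miR-16, miR-17 to 92 and epithelium lists had medians of -0.07, -0.05 and -0.16, no member past the threshold, and for each a sample without which the sign of the median turned.

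Nervous system, lens and sensory, Hox cluster, early embryo and mesenchyme lists had medians between -0.20 and 0.07, with no member past the threshold. The early embryo list had sample means of 6.47 to 6.59, close to miR-430b, which was not above background in any of these samples. The median of that list is thus no measure of equal levels. Of the nervous system list 6 of 8 were tested, with a median of 0.01. Sapje was below without overlap in 1 member, against 27 of 167 (16.2%) over all tested probes. The 6 Hox cluster members ranged from -0.13 to 0.20. The miR-26, miR-30 and miR-181 families had medians of -0.19, -0.07 and -0.20, also with no member past the threshold. All 5 members of the mesenchyme and connective tissue list, among them miR-199 at -0.38 ± 0.28, were below 0 at a median of -0.20 (3 of 5 under cyclic loess and within-array loess), with overlapping groups in each.

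**Figure D5:**
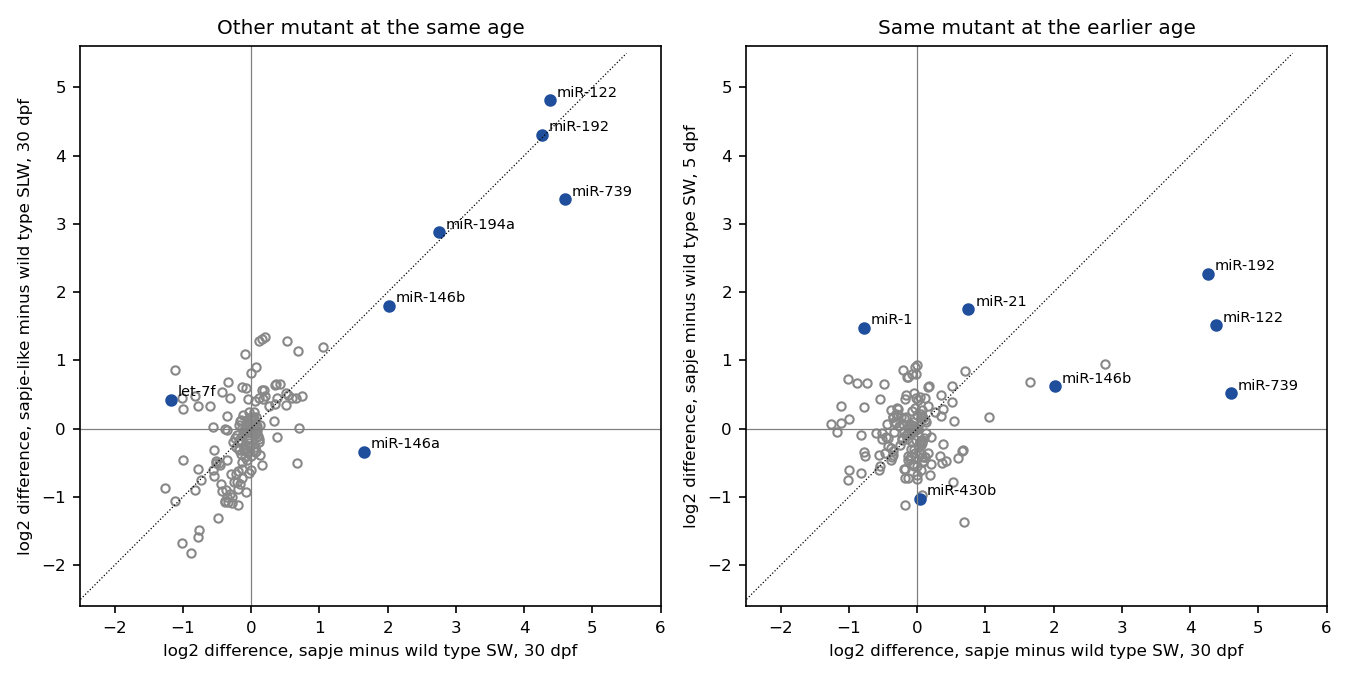
Log2 difference of 167 tested probes, sapje minus wild type SW at 30 dpf (x axis, both panels), against sapje-like minus wild type SLW at 30 dpf (left) and sapje minus wild type SW at 5 dpf (right), with equality dotted. MiR-739, miR-146b, miR-122, miR-192 and miR-194a lie far above 0 on both axes at left, miR-146a (-0.34 on the left y axis) does not, and miR-1 is above 0 only at 5 dpf at right.

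To ask whether the pattern was particular to this cohort, the effect was set against that of sapje-like over wild type SLW at 30 dpf, from other samples. MiR-739 differed by 3.36 ± 0.92 there (adjusted p of 0.0365) and miR-146b by 1.80 ± 0.41 (adjusted p of 0.0229). The unadjusted limma p of miR-739 there was 0.00284. With the adjustment over 167 probes, its adjusted p means that several other probes passed the threshold in that comparison too. Their number was not counted, so these values do not show that the 2 probes stood out there. Nor was that comparison by itself rerun under the alternatives or with samples left out. The 2 mutants' effects did not differ past the threshold in any of the 167 probes (0%) by limma, with 9 at an unadjusted p under 0.05 (5.39%). Among these were miR-146a, at 1.66 in sapje and -0.34 in sapje-like, a difference between effects of -1.997 ± 0.73 (adjusted p of 0.663), and let-7f, at -1.17 and 0.43. MiR-146a read 9.04, 8.59 and 8.51 in sapje-like and 8.04, 8.65 and 10.27 in SLW replicates 2, 5 and 8. SLW replicate 8 was the highest of these 6 samples, and without it the difference between effects was -1.30 ± 0.55 (adjusted p of 0.396). Across the 167 probes the 2 effects correlated at r = 0.78 as a description, and 119 had the same sign. MiR-739, miR-122, miR-192 and miR-194a are extreme points of that relation. The gut and liver list had medians of 3.51 and 3.59, and 1 wild type SLW sample was high in that list.

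The effect at 30 dpf was also set against that of the same genotypes at 5 dpf (2 samples each). Across the 167 probes the effects at the 2 ages correlated at r = 0.36 as a description, and 82 had the same sign. The gut and liver list had a median of 3.51 at 30 dpf and was also above 0 at 5 dpf, at a median of 1.23. MiR-739 differed at 5 dpf by 0.52 ± 1.11 and miR-146b by 0.62 ± 0.50, and neither effect differed between the ages past the threshold (adjusted p of 0.262 and 0.414). In miR-1 it did: the difference was 1.48 ± 0.31 at 5 dpf and -0.78 ± 0.26 at 30 dpf, a change of -2.25 ± 0.41 at a limma adjusted p of 0.0138. Quantile normalization tied miR-1 at 14.65, its top value, in the 3 SW samples of 30 dpf, so that group showed no spread in this fit. MiR-430b, of the early embryo, was the other of 2 probes with an effect that differed (1.20% of 167), at -1.03 at 5 dpf and 0.04 at 30 dpf, where no sapje or SW sample was above background. MiR-21 differed by 1.75 ± 0.22 at 5 dpf against 0.75 at 30 dpf, and that change had an adjusted p of 0.229. Both calls on age were lost under 3 other normalizations (within-array loess, cyclic loess, median scaling) and on the authors' deposited table. They were also lost without either sapje sample or SW replicate 1 of 5 dpf. With 1 sample left out, miR-1 kept its call in 7 of 10 fits and miR-430b in 3 of 10. Under the other alternatives miR-1 kept it in 11 of 15 and miR-430b in 7 of 14.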

How the data were processed

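Small RNA of 20 whole-fish samples was hybridised to 2-colour microRNA arrays, each sample being 1 dye channel. Per the labels, the miRVana kit served for extraction, and LC Sciences, a service provider, isolated small RNA, added a poly(A) tail and stained with Cy3 or Cy5. The deposited scanner files hold the mean intensity of 3968 spots per sample, with no background removed, and name no genome build. The authors' deposited value table holds 1 processed intensity per probe on a linear scale. How it was corrected and scaled is not given in the sources used here, so its scale and centring stay unknown, and its direction was settled by its correlation with the log2 values computed here (0.956 to 0.969 in the 6 samples). Its medians were 130.1, 144 and 109 for sapje replicates 1 to 3 and 125, 121 and 141 for SW replicates 2 to 4. It served as an alternative.

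Scanner values were corrected with normexp (offset 50), taken to log2, averaged over 12 spots per probe and quantile normalized over 219 mature probes. A probe was above background where its mean intensity exceeded the median of 1032 empty spots by 3 scaled median absolute deviations of those spots. Testing took the 167 probes (15 of them star strands) that reached this in 2 or more samples of some group, and left out 52. limma 3.58.1 in R 4.3.3 fitted 8 groups and the dye (11 residual degrees of freedom and 2.48 from the prior). Tests were two-sided, with the Benjamini-Hochberg adjustment over all 167 probes and a threshold of 0.05. Python 3.11.15 with matplotlib 3.10.9 drew the figures. RefSeq microRNA genes matched 215 of the 219 probes, miR-739 not among them. The limma fit was also run on simulated data, with independent normal noise around normalised values. Those data had no quantile step, shared arrays or outlying samples, so they cannot test the part of these.

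The probes named are those past the threshold, then those with the smallest p until 25 were named, members of the lists, probes called in the comparisons of cohorts and ages, and seed relatives of called probes. Members and lists were chosen with earlier results of these data known. Alternatives were other normalizations, backgrounds, filters, spot summaries, sample subsets, dye and block terms, the authors' table and leaving out each sample.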

Additional observations from a re-analysis of the deposited data

Results flagged for a closer look

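In 2 probes the sapje effect differed between 30 dpf and 5 dpf by the test of that difference. The call of miR-1 held in 7 of 10 fits with 1 sample left out, and that of miR-430b in 3 of 10. For miR-1 the change in effect was -2.25 (log2, limma adjusted p of 0.0138). Its normalised values at 5 dpf were 13.43 and 13.22 in sapje and 11.60 and 12.09 in SW, with sapje above, whereas at 30 dpf all 3 SW samples were above all 3 sapje samples. Quantile normalization tied those 3 SW samples at 14.65, so they showed no spread in that fit, while their scanner values ranged from 25898 to 33452. For miR-430b the change was 1.07 (limma adjusted p of 0.0242). It read 8.39 and 8.32 in sapje and 9.59 and 9.17 in SW at 5 dpf, and 6.46 to 6.59 in the 6 samples of 30 dpf, where it was not above background. By the inferred pairing each age has its own arrays, and the 5 dpf groups hold 2 samples each.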

How the results depend on the processing

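The count of 2 probes past the threshold in sapje against SW at 30 dpf became 0 under cyclic loess and within-array loess, 1 (miR-739) on the authors' table and with only 30 dpf samples, 4 with only the groups compared (miR-739, miR-21, miR-462 and miR-731, without miR-146b), and 4 with the inferred array as a random block (miR-122 and miR-21 besides the 2). At 30 dpf, sapje and SW samples of equal replicate number (2 and 3) did not deviate together (correlations of -0.44 and -0.05). The numbers were therefore not taken to pair samples. Over all samples, however, a replicate block had a correlation of 0.32, against 0.11 for the inferred array, and it gave 4 calls. Leaving out each sample in turn gave 0 to 0 calls. The count of 2 for the effect at 30 dpf minus that at 5 dpf became 0 on the authors' table and under within-array loess, cyclic loess and median scaling, and 1 with quantiles within each dye, with the median empty spot subtracted, and with probes above background in all 3 samples of either group. It was 0 to 5 with 1 sample left out, 5 without SW replicate 2 of 5 dpf. The comparison of the 2 mutants' effects gave 0 calls in every alternative run. MiR-206 changed sign under cyclic loess (0.038) and on the authors' table (0.015), and miR-430b, below background, ranged from -0.0086 to 0.097 at 30 dpf with 1 sample left out. The cause of these shifts was not tested, apart from fewer samples in the fits that leave some out. Counting each probe under each alternative as 1 value, 9 of 1214 passed the threshold only there. Of these 4 were for miR-21, 3 for miR-122 and 1 each for miR-462 and miR-731. Another 40 lost it, 8 of miR-739, 11 of miR-146b, 7 of miR-1 and 14 of miR-430b. Only these 4 called results could lose it. Each was run in 6 or 10 fits with 1 sample left out and in 14 to 16 other alternatives. Dim probes are limited by the empty spots, which read higher in Cy3.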

Other observations

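For 13 microRNAs both strands of the hairpin were tested, and in 10 of them the 2 strands had differences of the same sign. MiR-210, known for its induction in hypoxia, differed by -0.56 ± 0.30 and its star strand by -0.55 ± 0.26, each at a limma adjusted p of 0.408. The 2 strands of miR-133a, of muscle, differed by -0.51 ± 0.49 and -0.45 ± 0.23. MiR-338, of the nervous system in mammals, was above background in 3 SW samples and 1 sapje sample, with a difference of -0.26 ± 0.14 at an adjusted p of 0.408. MiR-456 read 9.09, 8.79 and 8.75 in sapje and 8.29, 8.09 and 8.65 in SW, higher in all 3 sapje samples, with a difference of 0.59 ± 0.23 at an adjusted p of 0.261.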
